A study of Mus musculus with 15 samples.

Results

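The genes described here are 36 glycolysis and hypoxia response genes, taken by symbol from the 54838 genes of a count table of mouse splenic B cells. They comprise 4 glucose and lactate transporters, 16 glycolytic enzymes, 4 genes acting on the fate of pyruvate, 2 regulators of fructose bisphosphate, 3 genes of the hypoxia-inducible factor (HIF) and its oxygen sensors, and 7 other hypoxia response genes. RNA came from wild-type spleen, in 15 libraries that make 5 groups, and the 3 libraries of a group carry the letters A, B and C. In 3 groups naive B cells had been activated for 5 days in KO-DMEM, an embryonic stem cell medium. One received lipopolysaccharide (LPS, 25 µg/ml), one received CpG oligonucleotide (2 µM), and one received anti-CD40 antibody (5 µg/ml) with mouse IL-4 (80 ng/ml), called CD40 below. Whether IL-4 was also present with LPS and CpG cannot be read from the labels. Cytokines and medium were supplied on days 0 and 3. The remaining groups were germinal centre (GC) B cells and naive B cells, sorted after magnetic enrichment of B220-positive cells. Every mouse was a 3-month-old male immunised with sheep red blood cells 9 days earlier, so the naive cells also came from immunised animals. The series text can be read as placing GC cells in culture too, while the sample names give a culture day for activated libraries alone. No label ties a letter to an animal, a pool or a day. The p-values thus cover the variation among libraries, which may be technical.

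Glycolysis breaks glucose down to pyruvate in the cytosol. Lactate dehydrogenase turns pyruvate into lactate, which leaves through monocarboxylate transporters, while pyruvate dehydrogenase passes it to the mitochondria unless pyruvate dehydrogenase kinases switch that enzyme off. HIF-1 is a transcription factor whose alpha subunit is destroyed when oxygen is present, after prolyl hydroxylases have marked it, so that its activity is set largely at the protein. Many of its targets are glycolytic genes, and others remove mitochondria, modify collagen or restrain growth. Activated B cells are known for higher glucose uptake, and parts of germinal centres are known to be hypoxic.

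HIF binds the core letters ACGTG or GCGTG. Promoter windows are shown for the 4 members with the highest value of letter B over letter C among the activated libraries that have a RefSeq window, and for Hif1a, which moved the other way between those letters. Each window runs from 250 bases before to 50 bases after a transcription start, from RefSeq on GRCm38.p6, and is written 5′ to 3′ on the strand of the gene. Capitals mark ACGTG or GCGTG on either strand, CACGT and CACGC being the reverse complements.
P4ha2, chr11:54100674-54100973, plus strand: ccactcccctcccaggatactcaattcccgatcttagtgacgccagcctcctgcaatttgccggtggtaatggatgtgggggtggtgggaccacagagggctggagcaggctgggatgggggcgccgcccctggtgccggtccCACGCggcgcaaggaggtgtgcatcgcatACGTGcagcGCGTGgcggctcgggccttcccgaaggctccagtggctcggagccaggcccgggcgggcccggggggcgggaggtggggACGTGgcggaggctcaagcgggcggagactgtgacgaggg
Eno2, chr6:124769624-124769923, minus strand: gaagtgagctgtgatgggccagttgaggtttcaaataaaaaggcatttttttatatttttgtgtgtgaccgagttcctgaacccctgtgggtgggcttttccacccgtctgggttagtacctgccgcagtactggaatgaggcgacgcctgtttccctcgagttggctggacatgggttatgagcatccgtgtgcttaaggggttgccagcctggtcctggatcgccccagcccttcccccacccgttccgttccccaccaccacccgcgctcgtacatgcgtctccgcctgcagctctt
Slc16a3, chr11:120948817-120949116, plus strand: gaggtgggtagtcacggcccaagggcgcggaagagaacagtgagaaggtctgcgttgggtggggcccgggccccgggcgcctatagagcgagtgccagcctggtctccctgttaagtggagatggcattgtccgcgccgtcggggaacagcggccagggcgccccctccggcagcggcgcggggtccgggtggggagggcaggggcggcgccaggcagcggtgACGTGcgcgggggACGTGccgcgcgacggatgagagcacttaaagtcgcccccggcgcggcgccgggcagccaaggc
Bnip3, chr7:138909457-138909756, minus strand: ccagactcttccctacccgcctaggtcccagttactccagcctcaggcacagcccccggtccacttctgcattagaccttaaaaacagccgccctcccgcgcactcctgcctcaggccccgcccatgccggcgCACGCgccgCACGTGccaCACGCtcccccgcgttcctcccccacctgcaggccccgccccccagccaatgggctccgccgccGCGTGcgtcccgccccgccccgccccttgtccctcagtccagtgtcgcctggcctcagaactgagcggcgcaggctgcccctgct
Hif1a, chr12:73907617-73907916, plus strand: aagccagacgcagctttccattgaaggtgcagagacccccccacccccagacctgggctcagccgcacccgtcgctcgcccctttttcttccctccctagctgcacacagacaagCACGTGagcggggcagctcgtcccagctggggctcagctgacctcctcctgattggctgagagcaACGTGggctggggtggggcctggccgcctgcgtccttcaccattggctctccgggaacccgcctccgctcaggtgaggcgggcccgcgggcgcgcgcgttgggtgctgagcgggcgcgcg
The windows of P4ha2 and Bnip3 held 4 sites each, those of Slc16a3 and Hif1a held 2, and that of Eno2 held 0. Of the 36 members, 34 matched a RefSeq entry with a window, and 31 of these had at least 1 site. Over the 47 member windows, 83% held at least 1 site and 61.7% at least 2. Among the 13727 windows of all genes tested, 60.2% held at least 1 and 28.8% at least 2. The mean content of G and C bases was 62.3% in member windows and 60% in those of all genes tested. The letters CACGTG, which contain the core and are also the E-box read by MYC, were found in 12.8% of member windows, those of Bnip3 and Hif1a included. They were found in 9.75% of the windows of all genes tested. A match is a run of letters and not a measured binding site.

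The libraries held 25397624 to 36272197 counts. All 6 GC markers tested were higher in GC than in naive cells and all 5 follicular markers were lower. Plasma cell markers summed to 1143 to 4907 CPM (counts scaled to library size, defined below) in activated libraries, 1452 to 1838 CPM in GC and 302 to 347 CPM in naive libraries. Most of the GC sum was Jchain, at 1267 to 1588 CPM. On average Irf4 (29.3 against 197 CPM) and Sdc1 (4.27 against 6.01 CPM) were lower in GC than in naive cells, and the other plasma cell markers were higher. The 6 T cell markers summed to 30.4 to 43.5 CPM in activated, 160.4 to 174 CPM in GC and 57.0 to 74.3 CPM in naive libraries, most of each sum being Lck. Cd3e and Cd8a were at 0 in GC and naive cells. Cd3d, Cd3g and Cd4 averaged 0.127, 0.200 and 0.149 CPM in GC and 0.945, 1.91 and 0.495 CPM in naive cells. Naive replicate B stood apart. It had the fewest detected genes, 11523, its 7 erythroid markers summed to 306 CPM, against 29.2 and 3.30 CPM in naive A and C, and its neutrophil markers summed to 42.2 CPM, with Ly6g at 0. Counts of members called against naive are therefore given with and without that library. Naive replicate A was also low, with 13920 detected genes against 18866 in naive C. Genes with 2 to 20 counts numbered 756, 545 and 5556 in naive A, B and C. Bounds and ratios over 0 to 2 naive counts do not cover this difference between libraries.

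Levels are counts scaled to library sizes adjusted by TMM (trimmed mean of M values), written CPM. Changes are log2 fold changes ± standard error. Adjusted p-values are two-sided, from the edgeR quasi-likelihood test with Benjamini-Hochberg adjustment over all genes tested, and a gene is called below 0.05. All 36 members passed the filter on low counts.

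Summed over the 36 members, the level was 15709 ± 4476 CPM with LPS, 17107 ± 5279 CPM with CpG, 15768 ± 4587 CPM with CD40, 7042 ± 601 CPM in GC and 3721 ± 871 CPM in naive cells (SD, n = 3 each). The lowest activated library, at 12684 CPM, lay above the highest GC library, at 7527 CPM, and every GC library lay above every naive one. The enzymes made up most of each sum, at 13175 ± 3630.2, 14326 ± 4379, 13195 ± 3749, 5855 ± 524 and 2894 ± 814 CPM in the same order. In bulk RNA, more cells using a gene and more RNA per cell cannot be told apart.

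**Figure D1:**
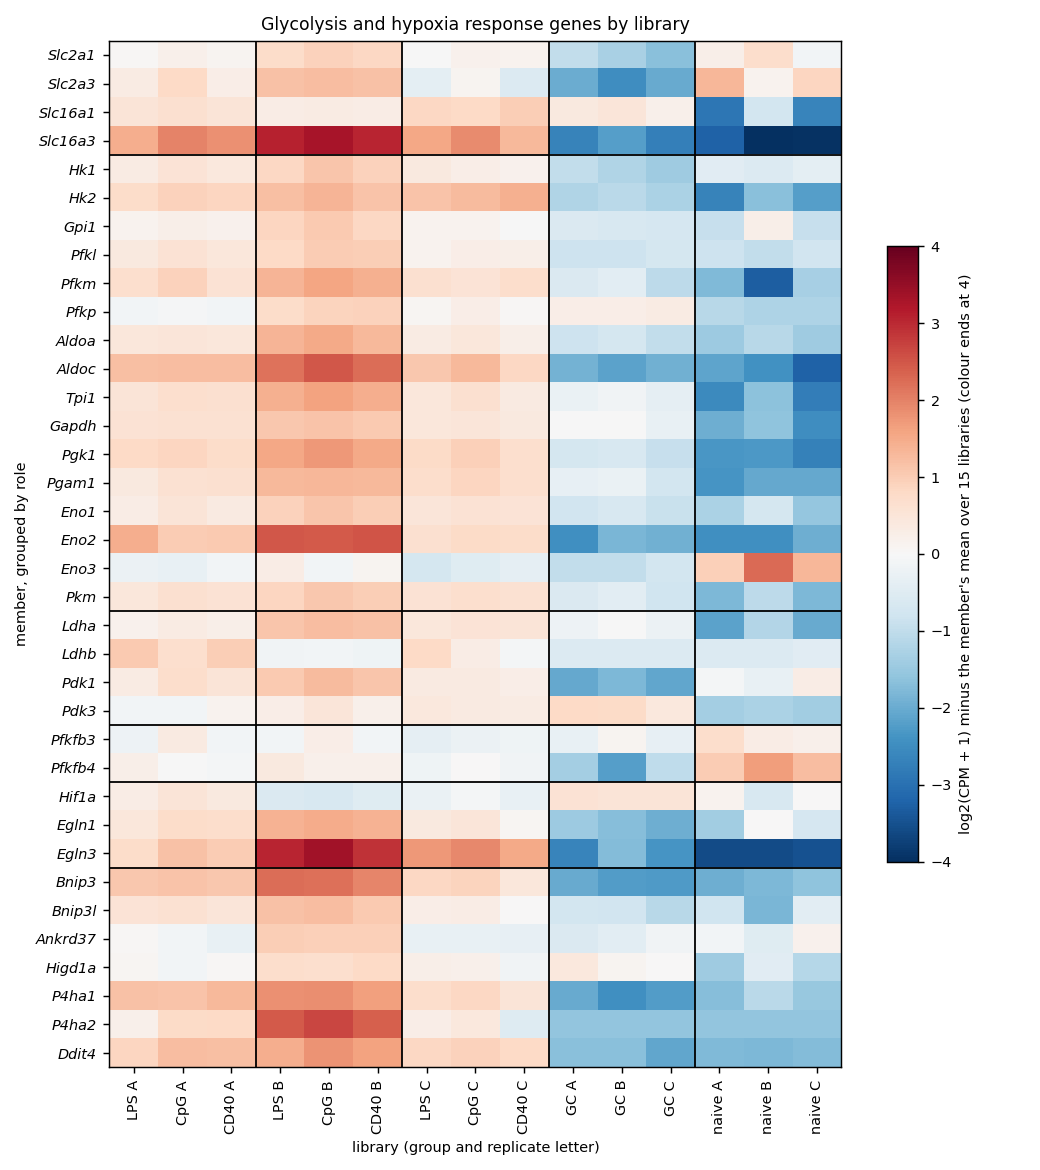
Each row is a member and each column a library, the activated libraries by letter and then GC and naive. Colour is log2(CPM + 1) minus the mean of that member over the 15 libraries, with the scale ending at 4 on either side. The letter B columns hold the highest values in most rows, and the row of Hif1a runs against them.

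Between GC and naive cells the set split. In GC cells the hexokinase Hk2, the phosphofructokinase Pfkp, several enzymes from Tpi1 to Pkm, and Ldha were higher, while both glucose transporters, Pdk1 and both regulators of fructose bisphosphate were lower. Of 36 members 12 were higher, where 17.9% of the 17144 genes tested were, and 8 were lower, where 16.5% were. The median change of the members was 0.42, against 0.00 over all genes, and 0.49 over 35 members without P4ha2, which had 0 counts in both groups. Without naive replicate B 14 members were higher and 7 lower. The count of lower members was 5 without GC replicate A and 5 without GC replicate C.

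Of the transporters 1 was higher and 2 were lower. Slc2a1 (GLUT1), a widely used glucose carrier, had 28.7, 22.8 and 17.6 CPM in GC cells, against 68.6, 94.7 and 53.7 CPM in naive cells (-1.65 ± 0.31, adjusted p = 0.000754). Slc2a3 (GLUT3), a glucose carrier of high affinity, had 10.6, 7.20 and 10.5 CPM in GC cells, against 115, 50.4 and 83.1 CPM in naive cells (-3.13 ± 0.52, adjusted p = 0.00038). All GC libraries lay below all naive libraries for both genes. Slc16a1 (MCT1), which carries lactate and pyruvate, had 39.5, 42.6 and 34.6 CPM in GC cells, against 3.13, 17.5 and 3.95 CPM in naive cells (2.25 ± 0.50, adjusted p = 0.00327). The highest naive value was that of replicate B, the library with erythroid markers, and the change was 3.46 without it. The groups did not overlap. Slc16a3 (MCT4), the lactate exporter of glycolytic cells, had 2.80, 4.28 and 2.64 CPM in GC cells, against 1.59, 0 and 0.555 CPM in naive cells. The GC values lay above the naive ones, and the gene was not called (2.12 ± 0.88, adjusted p = 0.0814).

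Of the 16 enzymes 7 rose in GC cells and 2 fell. Gapdh, which reduces NAD in the middle of the pathway, had 2489, 2511 and 2062 CPM in GC cells, against 649, 824 and 451 CPM in naive cells (1.88 ± 0.27, adjusted p = 8.7e-05). Tpi1, the triose phosphate isomerase, had 397, 433 and 374 CPM in GC cells, against 82.1, 154 and 69.9 CPM in naive cells (1.98 ± 0.39, adjusted p = 0.00116). Every GC library lay above every naive library for both. Pgam1 (1.75) and Pgk1 (1.68), later enzymes of the pathway, were higher as well. Hk2, an inducible hexokinase, had 15.7, 17.1 and 14.97 CPM in GC cells, against 5.06, 11.1 and 7.32 CPM in naive cells (1.03 ± 0.25, adjusted p = 0.00507). Pfkp, the platelet-type phosphofructokinase, had 223, 219 and 228 CPM in GC cells, against 85.4, 76.9 and 77.7 CPM in naive cells (1.48 ± 0.29, adjusted p = 0.00107). Pkm, pyruvate kinase of the last step, had 742, 825 and 642 CPM in GC cells, against 323, 539.8 and 319 CPM in naive cells (0.90 ± 0.22, adjusted p = 0.0059). These 3 genes did not overlap between the groups, and the table does not separate the transcript forms of Pkm. The enzymes that fell were Hk1 (-0.74 ± 0.23, adjusted p = 0.0242), the housekeeping hexokinase, and Eno3, the enolase best known from muscle. The call of Hk1 was lost without any one GC library or without naive replicate C (adjusted p = 0.0596 to 0.174). Eno3 had 8.25, 8.38 and 10.2 CPM in GC cells, against 34.6, 87.6 and 45.3 CPM in naive cells (-2.64 ± 0.35, adjusted p = 3.74e-05). The groups lay apart, with the highest naive value in replicate B, and the Eno3 change was -2.16 without that library. Gpi1, Pfkl, Pfkm, Aldoa, Aldoc, Eno1 and Eno2 were not called, with values between -0.21 (Gpi1) and 1.70 (Pfkm).

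Past pyruvate, both kinases of pyruvate dehydrogenase in the set changed, in opposite directions. Pdk3 had 91.3, 89.2 and 70.1 CPM in GC cells, against 19.8, 21.1 and 19.4 CPM in naive cells (2.05 ± 0.19, adjusted p = 1.12e-06). Pdk1, a known HIF target, had 13.3, 16.2 and 13.1 CPM in GC cells, against 55.6, 47.7 and 71.6 CPM in naive cells (-2.04 ± 0.29, adjusted p = 7.1e-05). Neither kinase overlapped between the groups. Ldha, the lactate dehydrogenase subunit that favours lactate, had 642, 722 and 632 CPM in GC cells, against 168, 324 and 182 CPM in naive cells, with no overlap (1.57 ± 0.33, adjusted p = 0.00198). Ldhb, the other subunit, had 0 counts in GC and 2 in naive cells. Pfkfb4, an enzyme that makes and removes the phosphofructokinase activator fructose 2,6-bisphosphate, had 5.54, 2.67 and 7.32 CPM in GC cells, against 33.3, 52.6 and 38.3 CPM in naive cells (-3.00 ± 0.34, adjusted p = 8.4e-06). The groups were far apart. Its relative Pfkfb3, which mainly makes the activator, had a change of -0.60 ± 0.20 (adjusted p = 0.0301), a call lost without GC replicate A or C or naive replicate A, and with only the 6 libraries compared (adjusted p = 0.129 to 0.204).

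The HIF genes had no common direction. Hif1a, the oxygen-regulated subunit, had 134, 128 and 129 CPM in GC cells, against 98.7, 56.8 and 89.8 CPM in naive cells. The groups did not overlap, and the difference was not called (0.67 ± 0.32, adjusted p = 0.115). Egln3 (PHD3), a prolyl hydroxylase that HIF itself induces, had 0.892, 2.56 and 1.32 CPM in GC cells, against 0, 0 and 0.0694 CPM in naive cells. All GC values were higher, and the ratio of 75.3 (95% counting interval 20.8 to 622) rests on 2 naive counts (adjusted p = 0.00426). Egln1 (PHD2), the main prolyl hydroxylase, was lower by a narrow call (-1.16 ± 0.42, adjusted p = 0.0498), and without naive replicate B its value was -0.72 (adjusted p = 0.231). The call was also lost without any one GC library or naive replicate C, with RLE size factors, with no filter and with only the 6 libraries compared (adjusted p = 0.052 to 0.231 over all of these). Among the other hypoxia response genes 1 of 7 was called, Higd1a, a small mitochondrial protein (1.18 ± 0.31, adjusted p = 0.00853). Bnip3l (NIX), a receptor for the removal of mitochondria, had 81.2, 78.7 and 62.1 CPM in GC cells, against 78.4, 37.7 and 102 CPM in naive cells. The groups overlapped (0.03 ± 0.36, adjusted p = 0.988). Ddit4 (REDD1), an inhibitor of mTORC1, ranged over 17.4 to 23.6 CPM in GC and 21.4 to 22.2 CPM in naive libraries and was not called. Bnip3, Ankrd37 and P4ha1 were not called either.

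**Figure D2:**
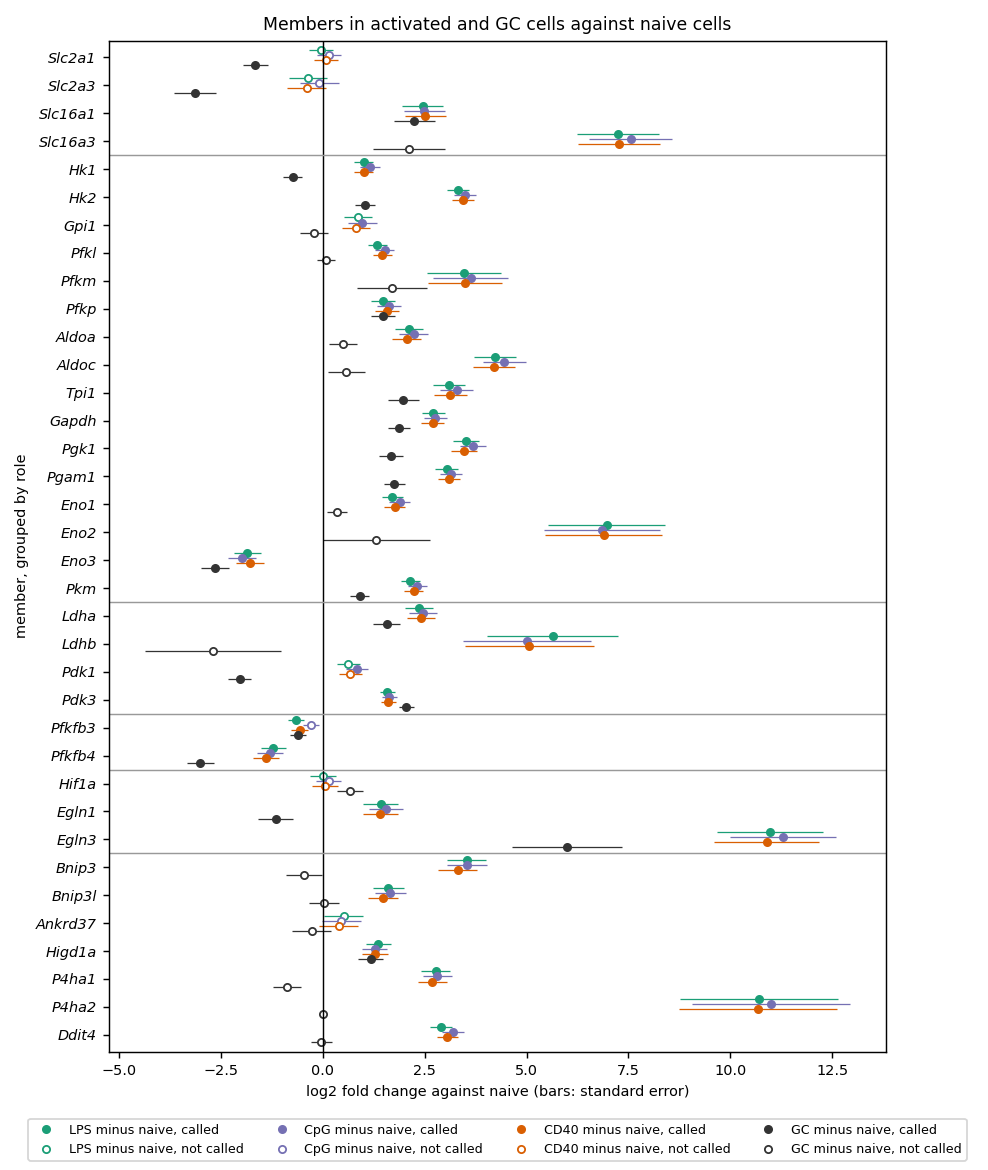
Log2 fold change against naive cells for each member, with standard errors, in LPS, CpG, CD40 and GC cells. Filled points passed the adjusted threshold of 0.05 and open points did not. Fitted values of P4ha2, Egln3 and Ldhb, which had 0 to 2 counts in naive cells, depend on the prior count. The 3 activated points of a member lie close together, as for Hk2 at 3.32, 3.48 and 3.44, with GC at 1.03.

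In activated cells most of the set was higher than in naive cells. With LPS 27 members were higher (19.5% of all genes tested) and 3 lower (14.2%). With CpG 29 were higher (19.7%) and 2 lower (14%), and with CD40 27 were higher (19.8%) and 3 lower (14.3%). In all 3 comparisons, which share the naive libraries, 27 members were higher (17.5% of all genes) and 2 lower (12%). The median of the members was 2.13 with LPS, 2.28 with CpG and 2.15 with CD40, also with P4ha2 at its lower bound, against 0.18, 0.18 and 0.17 over all genes. Without naive replicate B the higher counts were 28, 28 and 28, and the lower counts 3, 2 and 3. Without LPS replicate C 1 member was lower with LPS.

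The members nearly silent in naive cells changed most. Egln3 ranged over 19.0 to 121 CPM in the 9 activated libraries with a median of 38.3, against 0, 0 and 0.0694 CPM in naive cells. Its ratio to the 2 naive counts was 2427 (95% counting interval 672 to 20043) with LPS, 3013 (95% counting interval 834 to 24879.5) with CpG and 2271 (95% counting interval 629 to 18749.5) with CD40. P4ha2, a subunit of the hydroxylase that matures collagen, ranged over 1.08 to 17.9 CPM with a median of 4.07, against 0 counts in naive cells. It was at least 214-fold higher with LPS, at least 262-fold with CpG and at least 209-fold with CD40, against a floor of 3 counts over the naive group. Every activated library lay above every naive library for Egln3 and P4ha2, and P4ha2 also had 0 counts in GC cells. Slc16a3 ranged over 58.1 to 236 CPM with a median of 89.7, against 1.59, 0 and 0.555 CPM in naive cells (7.27 ± 1.01 with CD40, adjusted p = 0.000159). Eno2, the enolase best known from neurons, ranged over 7.65 to 30.4 CPM with a median of 10.3, against 0, 0 and 0.416 CPM in naive cells (6.90 ± 1.43 with CD40, adjusted p = 0.00232). Neither overlapped with naive cells. Ldhb was called higher too, yet its range was 0.318 to 2.04 CPM, and its ratio of 41.5 (95% counting interval 11.5 to 342) with CD40 rests on 2 naive counts. Its call was lost without naive replicate A with CpG and CD40, and without the letter A library of either stimulus (adjusted p = 0.0668 to 0.0983 with CpG, the 6 libraries alone included, and 0.0641 to 0.0977 with CD40).

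Of the 16 enzymes 14 were higher with LPS, 15 with CpG and 14 with CD40, and Eno3 was lower with each. Hk2 ranged over 63.4 to 102 CPM with a median of 83.9, against 5.06, 11.1 and 7.32 CPM in naive cells (3.44 ± 0.27 with CD40, adjusted p = 3.63e-07). Pkm ranged over 1538 to 2378 CPM with a median of 1738, against 323, 539.8 and 319 CPM in naive cells (2.23 ± 0.23 with CD40, adjusted p = 5.39e-06). Ldha ranged over 827 to 1719.6 CPM with a median of 1048, against 168, 324 and 182 CPM in naive cells (2.41 ± 0.34 with CD40, adjusted p = 8.63e-05). None of these 3 genes overlapped with naive cells. Pfkp ranged over 170.0 to 350.4 CPM with a median of 196, against 85.4, 76.9 and 77.7 CPM in naive cells, again with no overlap (1.57 ± 0.29 with CD40, adjusted p = 0.000783). Gpi1, the isomerase after hexokinase, was called with CpG (0.98 ± 0.35, adjusted p = 0.0418), while its values were 0.86 with LPS (adjusted p = 0.0668) and 0.82 with CD40 (adjusted p = 0.0819). The CpG call of Gpi1 was lost without CpG replicate B, naive replicate A or naive replicate C, with no filter and with only the 6 libraries compared (adjusted p = 0.087 to 0.175). Eno3 ranged over 10.2 to 21.5 CPM with a median of 14.8, against 34.6, 87.6 and 45.3 CPM in naive cells (-1.79 ± 0.34 with CD40, adjusted p = 0.000935). All activated libraries lay below the naive ones, and the Eno3 value was -1.30 with CD40 without naive replicate B.

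The glucose transporters were not called. Slc2a1 ranged over 56.4 to 109.9 CPM with a median of 64.6, against 68.6, 94.7 and 53.7 CPM in naive cells (0.08 ± 0.30 with CD40, adjusted p = 0.87). Slc2a3 ranged over 30.9 to 107 CPM with a median of 56.4, against 115, 50.4 and 83.1 CPM in naive cells (-0.40 ± 0.47 with CD40, adjusted p = 0.558). Both overlapped with naive cells. Pfkfb4 ranged over 14.0 to 21.1 CPM with a median of 16.0, against 33.3, 52.6 and 38.3 CPM in naive cells, with no overlap (-1.39 ± 0.32 with CD40, adjusted p = 0.00369). Pfkfb3 ranged over 26.2 to 44.0 CPM with a median of 31.4, against 56.8, 42.2 and 39.5 CPM in naive cells. These overlapped, and Pfkfb3 was lower with LPS (-0.66 ± 0.20, adjusted p = 0.0202) and with CD40 (-0.57 ± 0.20, adjusted p = 0.04), with -0.28 for CpG (adjusted p = 0.308). The LPS call was lost without any one LPS library or naive replicate A, with no filter and with only the 6 libraries compared (adjusted p = 0.0551 to 0.126). The CD40 call was lost without any one CD40 library or naive replicate A, in both of those fits and with RLE size factors (adjusted p = 0.0508 to 0.19). The LPS call of Pfkfb4 was lost without LPS replicate C (adjusted p = 0.0559).

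Hypoxia response genes outside glycolysis were higher in 6 of 7 cases with each stimulus, all but Ankrd37, a small ankyrin protein. Bnip3, a mitochondrial receptor like its relative Bnip3l, ranged over 27.6 to 97.3 CPM, against 4.40, 5.03 and 5.79 CPM in naive cells (3.32 with CD40). Bnip3l ranged over 136 to 317 CPM with a median of 198, against 78.4, 37.7 and 102 CPM in naive cells, with no overlap (1.48 ± 0.37 with CD40, adjusted p = 0.0071). Ddit4 and P4ha1, the other collagen hydroxylase subunit of the set, had values of 3.06 and 2.69 with CD40. Egln1 was higher by 1.42 with LPS, 1.55 with CpG and 1.41 with CD40, calls that were each lost without the letter B library of that stimulus and, for LPS and CD40, without naive replicate A, with no filter and with only the 6 libraries compared (adjusted p = 0.0513 to 0.0866 with LPS, 0.0542 with CpG and 0.0551 to 0.0883 with CD40). Hif1a ranged over 56.9 to 129 CPM with a median of 74.9, against 98.7, 56.8 and 89.8 CPM in naive cells. These ranges overlapped and no call was made (0.06 ± 0.31 with CD40, adjusted p = 0.906). Pdk1 ranged over 70.5 to 142 CPM with a median of 83.0, against 55.6, 47.7 and 71.6 CPM in naive cells. The ranges overlapped. Pdk1 was called with CpG (0.84 ± 0.28, adjusted p = 0.0309), with 0.63 for LPS (adjusted p = 0.0946) and 0.68 for CD40 (adjusted p = 0.0731), while LPS against CpG was not called (-0.21 ± 0.28). Its CpG call was lost without naive replicate B (adjusted p = 0.0917), naive replicate A (0.072) or CpG replicate B (0.125), and with only the 6 libraries compared (0.0702).

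**Figure D3:**
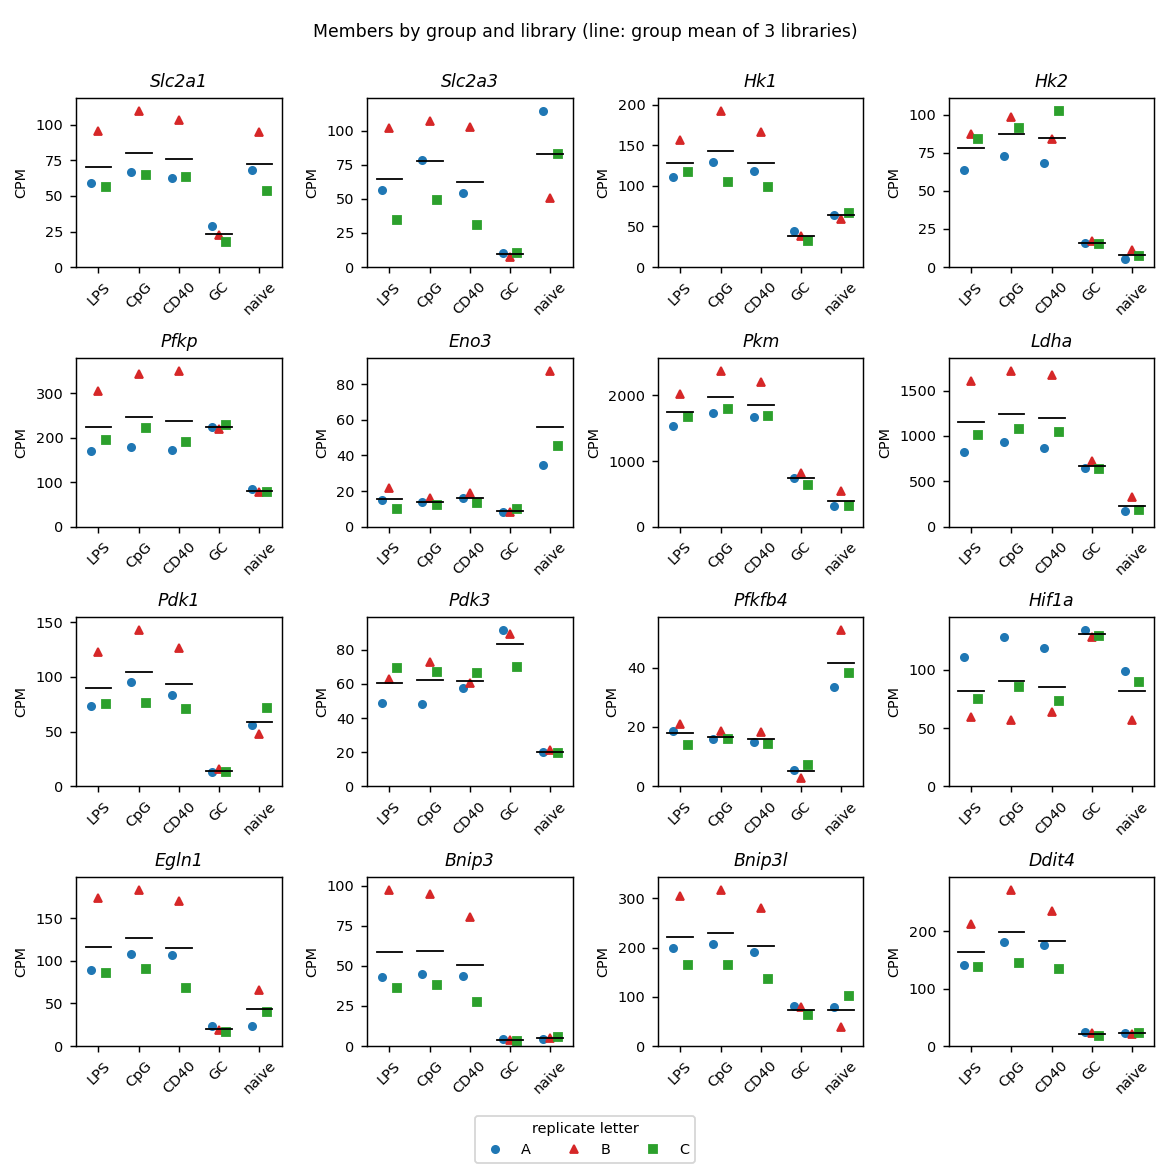
CPM of 16 members in each library of the LPS, CpG, CD40, GC and naive groups, on linear axes, with the replicate letter shown by the symbol. Slc2a1 and Slc2a3 are lowest in GC cells, Eno3 and Pfkfb4 are highest in naive cells, and letter B stands above letters A and C of the same stimulus in most panels but below them for Hif1a.

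Against GC cells 26 of 36 members were higher with LPS (15.8% of all genes), 26 with CpG (16.4%) and 26 with CD40 (15.9%), and 26 were higher in all 3 comparisons, which share the GC libraries. In each, 0 members were lower at the adjusted threshold by edgeR and 0 by DESeq2. Of all genes, 12.2%, 12.6% and 12.4% were lower with LPS, CpG and CD40 at that threshold by edgeR. Pdk3 was the 1 member lower at an unadjusted edgeR p below 0.05, and the share of all genes at that p is not given here. The medians were 1.62, 1.72 and 1.59, against 0.06, 0.05 and 0.05 over all genes. Both glucose transporters, low in GC cells, were higher: Slc2a1 by 1.61, 1.80 and 1.73 with LPS, CpG and CD40, and Slc2a3 by 2.77, 3.05 and 2.74. No activated library of either overlapped with GC cells. Hk2 was higher by 2.41 with CD40, Bnip3 by 3.78, P4ha1 by 3.56 and Ddit4 by 3.09. P4ha2 had 0 counts in GC cells and was at least 222-fold, 273-fold and 217-fold higher with LPS, CpG and CD40. The calls of Gapdh, Tpi1 and Gpi1 against GC cells were each lost without any one GC library. They were also lost without the letter B library of the stimulus (adjusted p = 0.124 to 0.239). With LPS and CD40 they were lost without the letter A library too, and those of Tpi1 and Gpi1 with no filter. The CD40 call of Bnip3l was lost without CD40 replicate B (adjusted p = 0.0568) or GC replicate C (0.0519). Several genes already high in GC cells were not called: Slc16a1 (0.27 with CD40), Pfkp (0.09), Ldha (0.85, adjusted p = 0.0661), Pdk3 (-0.44) and Higd1a (0.10). Hif1a had 56.9 to 129 CPM in activated libraries, against 134, 128 and 129 CPM in GC cells, and was not called (-0.61 ± 0.31 with CD40, adjusted p = 0.169).

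Levels per kilobase of exon set related genes side by side. Hk2 made up 46.6% of the summed Hk1 and Hk2 level with LPS, 47.3% with CpG, 48.8% with CD40, 37.6% in GC and 14.8% in naive cells. Pfkp made up 33.0% of the phosphofructokinase level with LPS, 32.6% with CpG, 32.5% with CD40, 55.5% in GC and 34.1% in naive cells. Only in GC cells, among the groups compared, did Pfkp exceed Pfkl, the liver-type enzyme, on average per kilobase. This order depends on the lengths used, 13401 bases of annotated exon for Pfkp and 6675 for Pfkl. In CPM the mean of Pfkp exceeded that of Pfkl in every group, as in naive cells with 80.0 against 74.2 CPM. Eno3 made up 3.72% of the enolase level with LPS, 3.10% with CpG, 3.82% with CD40, 5.55% in GC and 31.0% in naive cells. Pdk3 made up 67.2% of the Pdk1 and Pdk3 level with LPS, 64.7% with CpG, 67.0% with CD40, 94.7% in GC and 51.5% in naive cells. Of the lactate carriers, Slc16a3 held 63.3% with LPS, 68.3% with CpG, 62.9% with CD40, 6.42% in GC and 13.4% in naive cells. The naive shares were 29.7%, 0% and 10.5% in replicates A, B and C, and their mean without replicate A was 5.23%. GC cells thus had nearly all of their carrier RNA in Slc16a1. The shares were not tested.

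**Figure D4:**
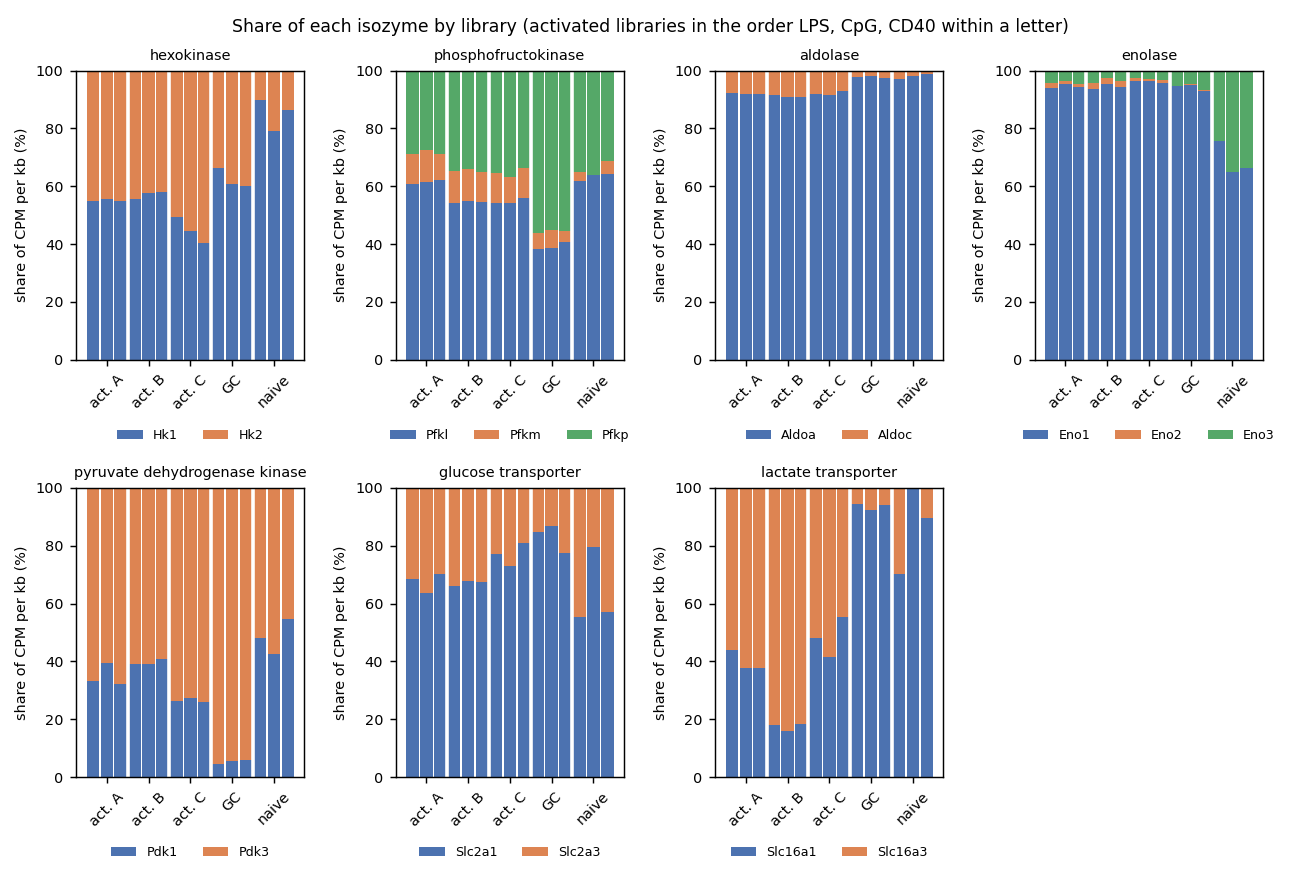
Each bar is a library and each colour the share, in percent, of a gene in the summed CPM per kilobase of exon of its family. Pdk1 is at 5.33% in GC cells on average, Eno3 is wide in naive cells, and Slc16a3 is widest in letter B.

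Between the stimuli, taken from the titles, no member was called. Whether the titles name the stimulus that each library received was not tested. For LPS against CpG, LPS against CD40 and CpG against CD40, 0% of all genes passed the edgeR threshold, and DESeq2 called 1 gene in each and 0 members. Unadjusted p-values below 0.05 were found for 71, 115 and 92 genes, with 0 members among them. The members' values lay between -0.38 and 0.63, between -0.15 and 0.57, and between -0.20 and 0.41. With the replicate letter as a block among the 9 activated libraries, 0.286%, 0.28% and 0.172% of the 15727 genes tested passed the adjusted threshold, and 0 members did in each comparison. At an unadjusted p below 0.05 were 15, 3 and 14 of 36 members, where 6.81%, 9.03% and 6.07% of all genes were. The lowest adjusted p-values were 0.136 for Slc16a3, 0.436 for Bnip3l and 0.0808 for Slc2a3.

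The replicate letter went with much larger differences among activated libraries. Within each stimulus, letter B held the highest of the 3 values for 30 of 36 members. The share of all genes with that order is not given here. In the tests between letters the 3 libraries of a letter, 1 of each stimulus, served as replicates. If a letter is 1 animal, pool or day, these p-values cover the spread within a letter alone. With stimulus as a term, A exceeded B for 3 members (16.6% of the 15727 genes tested) and lay below it for 30 (14.5%). For A against C 10 were higher (11.9%) and 8 lower (11.5%), and for B against C 30 were higher (17.3%) and 2 lower (17.5%). The medians were -0.72, 0.15 and 0.76, against 0.01, 0.02 and 0.02 over all genes. All 3 letter B libraries lay above the 6 others for 29 members (13.4% of all genes) and below them for 3 (12.8%). Summed over the set, the level was 13649.9 ± 490.0 CPM in letter A, 21705 ± 1298 CPM in letter B and 13228 ± 650.4 CPM in letter C (SD, n = 3 libraries, 1 of each stimulus). With the spread estimated over all 15 libraries, A against B had 1 higher and 18 lower, A against C 1 and 0, and B against C 22 and 0. The shares of all genes in that fit are not given here. Leaving out 1 library also moved some counts: A against B had 1 higher without LPS replicate B, and A against C had 6 higher without CD40 replicate A and 5 lower without LPS replicate A.

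Among the oxygen sensors and other hypoxia response genes, Egln3 and P4ha2 differed most. Values of a letter are given for LPS, CpG and CD40 in turn. Egln3 had 19.0, 25.9 and 22.8 CPM in letter A, 96.6, 121 and 87.9 CPM in letter B and 38.3, 44.5 and 33.2 CPM in letter C. The letters did not overlap, and the differences were -2.17 ± 0.10 for A against B (adjusted p = 2.52e-15), -0.78 ± 0.10 for A against C (adjusted p = 5.2e-07) and 1.39 ± 0.09 for B against C (adjusted p = 6.45e-12). The A against C call was lost with the spread estimated over all 15 libraries (adjusted p = 0.252). P4ha2 had 2.44, 4.07 and 4.22 CPM in letter A, 15.3, 17.9 and 14.6 CPM in letter B and 2.55, 2.97 and 1.08 CPM in letter C. Letter B lay above both others, which overlapped; A differed from B by -2.15 ± 0.27 (adjusted p = 5.32e-07) and B from C by 2.86 ± 0.28 (adjusted p = 7.51e-09). Bnip3 had a B against C value of 1.42. Bnip3l had 198, 207 and 191 CPM in letter A, 304, 317 and 281 CPM in letter B and 165, 165 and 136 CPM in letter C. The order B, A, C held without overlap (-0.59, 0.36 and 0.95 for A against B, A against C and B against C). Ankrd37, not called with any stimulus against naive cells, ranged over 8.50 to 11.0 CPM in letter A, 21.6 to 22.2 CPM in letter B and 8.36 to 8.60 CPM in letter C (1.36 ± 0.16, adjusted p = 1.6e-07 for B against C). All 7 genes of this role were lower in A than in B and higher in B than in C.

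Hif1a ran the other way. It had 111, 129 and 119 CPM in letter A, 59.5, 56.9 and 63.9 CPM in letter B and 74.9, 85.2 and 72.9 CPM in letter C. No letter overlapped another, and the differences were 0.99 ± 0.08 for A against B (adjusted p = 2.23e-10), 0.62 ± 0.08 for A against C (adjusted p = 7.67e-07) and -0.37 ± 0.08 for B against C (adjusted p = 0.000528). The B against C call was lost with the spread estimated over all 15 libraries (adjusted p = 0.21). Slc16a1 and Ldhb were the other members with all letter B libraries lowest. Slc16a1 ranged over 43.3 to 47.4 CPM in letter A, 36.9 to 37.6 CPM in letter B and 52.9 to 59.9 CPM in letter C. Ldhb had 2.04, 1.36 and 1.92 CPM in letter A, 0.324, 0.370 and 0.318 CPM in letter B and 1.55, 0.805 and 0.387 CPM in letter C. These are low levels, and A against B was the called difference (2.37 ± 0.73, adjusted p = 0.0143), a call lost without CD40 replicate A (adjusted p = 0.125) or LPS replicate B (0.0703). The call was also lost with the spread estimated over all 15 libraries (adjusted p = 0.322).

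**Figure D5:**
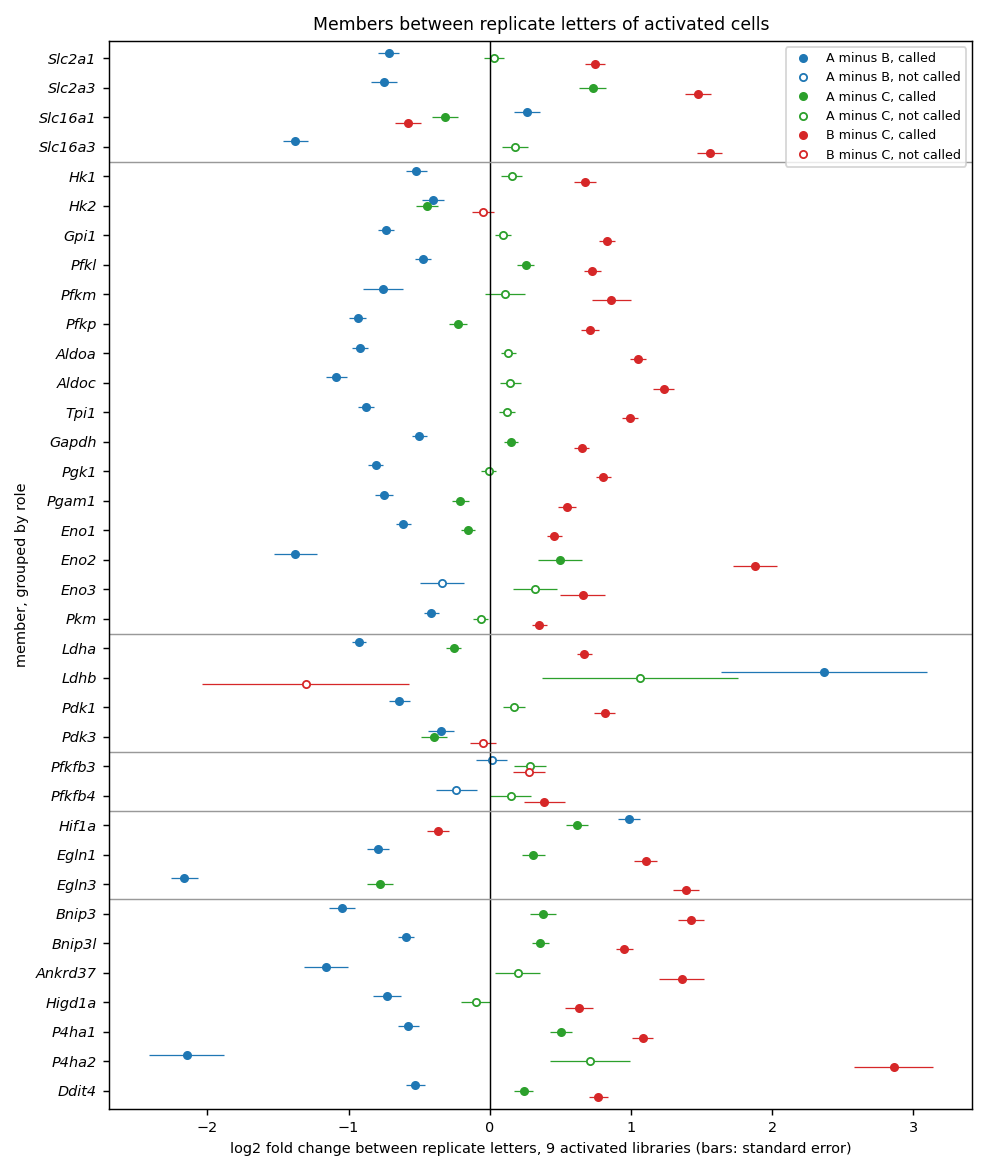
Log2 differences between the replicate letters of the 9 activated libraries, with standard errors, for A against B, A against C and B against C. Filled points passed the adjusted threshold of 0.05. Most A against B points lie left of 0 and most B against C points right of it, with Hif1a on the opposite side at 0.99 and -0.37.

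Transporters and enzymes mostly shared the high letter B level. Slc16a3 had 66.1, 94.2 and 86.2 CPM in letter A, 202, 236 and 201 CPM in letter B and 70.3, 89.7 and 58.1 CPM in letter C (1.56 ± 0.09, adjusted p = 4.93e-12 for B against C). Its share of the lactate carriers was 60.2% in letter A, 82.6% in letter B and 51.7% in letter C. Letter B stood apart for this lactate exporter, with A and C overlapping. Its B against C call was lost with the spread estimated over all 15 libraries (adjusted p = 0.0549). Slc2a3 had 56.4, 78.3 and 54.6 CPM in letter A, 102, 107 and 103 CPM in letter B and 34.5, 49.1 and 30.9 CPM in letter C. No letter overlapped another, and A exceeded C by 0.73 ± 0.09 (adjusted p = 1.34e-06). That call was lost with the spread estimated over all 15 libraries (adjusted p = 0.196). Slc2a1 ranged over 59.0 to 66.6 CPM in letter A, 95.8 to 109.9 CPM in letter B and 56.4 to 64.6 CPM in letter C, and A and C were not called apart (0.03). Eno2 had 14.0, 10.1 and 10.3 CPM in letter A, 29.8, 29.0 and 30.4 CPM in letter B and 7.65, 8.33 and 8.25 CPM in letter C (1.88 ± 0.16, adjusted p = 4e-10 for B against C). Its letter B libraries stood apart. The B against C call of Eno2 was lost with the spread estimated over all 15 libraries (adjusted p = 0.212). Of the 16 enzymes 15 were lower in A than in B and 15 higher in B than in C. Pfkp differed by -0.94, Ldha by -0.93, Pdk1 by -0.64 and Pkm by -0.42 between A and B, and the letter B libraries of these genes lay above all others. Hk2 departed from this, at 63.4 to 72.5 CPM in letter A, 83.7 to 98.2 CPM in letter B and 83.9 to 102 CPM in letter C, with B and C not called apart (-0.05 ± 0.08, adjusted p = 0.711). Pdk3 and Pfkfb3 were not called between B and C either.

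Markers of B cells and of other cell states differed between the letters too. The B cell marker Ms4a1 (CD20) had 285, 236 and 277 CPM in letter A, 44.0, 52.3 and 41.3 CPM in letter B and 281, 247 and 284 CPM in letter C, lowest in the letter where the set was high. All 5 B cell markers together summed to 4763 to 5138 CPM in letter A, 4485 to 4579 CPM in letter B and 3952 to 4181 CPM in letter C, with 4 higher and 1 lower, Cd79b, in A against B, and 2 higher and 1 lower, Ms4a1, in B against C. The 6 plasma cell markers summed to 1735 to 1869 CPM in letter A, 1143 to 1226 CPM in letter B and 3300.3 to 4907 CPM in letter C, with Tnfrsf17 at 0 in letters A and B. Of the 5 tested, 4 were higher in A than in B, 3 lower in A than in C and 5 lower in B than in C. Xbp1 made up most of the sums in letters A and B. Jchain ranged over 69.3 to 114 CPM in letter A, 17.0 to 19.0 CPM in letter B and 1538 to 2844 CPM in letter C. The 6 GC markers summed to 999 to 1090.1 CPM in letter A, 603 to 698 CPM in letter B and 485 to 628 CPM in letter C. The 5 follicular markers summed to 1373 to 1438 CPM in letter A, 585 to 643 CPM in letter B and 497 to 534 CPM in letter C. Among them Fcer2a followed the letter and not the titled stimulus. It had 981, 890 and 967 CPM in letter A, 183, 181 and 183 CPM in letter B and 159, 155 and 150 CPM in letter C. The 6 myeloid markers summed to 36.6 to 41.4 CPM in letter A, 44.6 to 48.0 CPM in letter B and 26.8 to 29.9 CPM in letter C, with Csf1r at 0 in all 9 libraries. The part of these differences in the levels of the 36 genes was not tested.

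Further genes of these pathways, 83 in 5 lists of which 71 were tested, give the setting. In GC against naive cells 16 of the 71 were higher, where 17.9% of all genes tested were, and 21 lower, where 16.5% were. Of 29 other hypoxia targets 2 were higher in GC and 11 lower, with Car12, a carbonic anhydrase, at least 10.2-fold higher over 0 naive counts. Of 19 other glycolysis genes 1 was higher and 8 were lower, led by Pdk2, another pyruvate dehydrogenase kinase, at 0, 0.109 and 0 CPM in GC cells, against 11.1, 20.1 and 14.2 CPM in naive cells (-8.45). Genes of pyruvate entry into mitochondria were higher in 5 of 9 cases and lower in 0, with Pdhx, a part of pyruvate dehydrogenase, at 1.31. Pentose phosphate genes were higher in 5 of 7 cases and lower in 1, with the epimerase Rpe at 1.49. Of 7 other HIF regulators 3 were higher and 1 lower, with Epas1, which encodes HIF-2 alpha, at least 9.20-fold higher over 0 naive counts, though at 0, 0.546 and 0.330 CPM in GC cells.

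In activated against naive cells 28 of the 71 were higher with LPS, 30 with CpG and 28 with CD40, and 6, 7 and 7 were lower. Of all genes tested 19.5%, 19.7% and 19.8% were higher and 14.2%, 14% and 14.3% lower. Hypoxia targets made up 14, 15 and 14 of the higher ones. Vldlr, a lipoprotein receptor, was at least 180.0-fold higher with LPS, and Stc2, a secreted glycoprotein, at least 219-fold with CpG and 205-fold with CD40, over 0 naive counts. Slc2a6, a further glucose transporter, was higher by 2.82 with LPS and 2.87 with CD40. Epas1 was at least 27.9-fold, 25.0-fold and 26.7-fold higher with LPS, CpG and CD40. Rpe led the pentose phosphate genes at 1.29, 1.35 and 1.30. Among pyruvate entry genes, Pdha1 led with LPS at 1.04, and Pdp2, a phosphatase that reactivates pyruvate dehydrogenase, with CpG at 1.21 and CD40 at 1.20.

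Against GC cells, 19, 20 and 20 of the 29 hypoxia targets were higher with LPS, CpG and CD40, and 3 were lower with each. Of all genes tested 15.8%, 16.4% and 15.9% were higher and 12.2%, 12.6% and 12.4% lower. Ak4, a mitochondrial adenylate kinase with 0 counts in GC cells, was at least 665-fold, 779-fold and 685-fold higher. Galm, an aldose epimerase, was at least 45.8-fold, 58.5-fold and 34.2-fold higher, also over 0 counts in GC. Egln2, the remaining prolyl hydroxylase, was lower with LPS, CpG and CD40, at -0.94, -0.85 and -0.88, the one call among the HIF regulators. Taldo1, a transaldolase, was lower with LPS (-1.01) and CD40 (-0.997), and Pgls, of the same pathway, was higher with CpG (0.96). Dld was lower with LPS (-0.63), and Pdp2 was higher with CpG (1.10) and CD40 (1.10).

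Between the letters, 16 of the 29 hypoxia targets were lower in A than in B and 4 higher, 11 were higher in A than in C and 3 lower, and 23 were higher in B than in C and 1 lower. Of all genes tested 14.5% were lower and 16.6% higher for A against B, 11.9% higher and 11.5% lower for A against C, and 17.3% higher and 17.5% lower for B against C. The leading genes were Anxa2, an annexin, for A against B (-2.65), Vldlr for A against C (1.87) and Ndrg1, a stress-induced gene, for B against C (2.18). Hif3a, a HIF subunit that can oppose the others, had 2.87, 2.99 and 3.91 CPM in letter A, 14.3, 15.6 and 8.28 CPM in letter B and 3.99, 3.78 and 3.56 CPM in letter C (-1.93 for A against B and 1.73 for B against C). It was highest in letter B, unlike Hif1a. Cited2, which competes with HIF for a coactivator, led A against C at -0.24. Of the 19 other glycolysis genes A against B had 2 higher and 6 lower, A against C 3 and 4, and B against C 7 and 3, with Pdk2 leading A against B (1.27) and A against C (1.29). Pentose phosphate genes were led by Tkt (-0.43), Pgls (0.51) and Rpia (-0.63), and pyruvate entry genes by Pdhx (0.35), Pdp1 (0.89) and Mpc2 (-0.43), for A against B, A against C and B against C in turn.

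Some members share sequence or exons with other genes, and the handling of strand and of reads with several matches is not given in the sources used here. Near copies, at 95% identity or more over at least 300 bases, were annotated for 11 members. Shares of copies are given of the joint counts of the gene and its copies. Gapdh had 77 copies, which together held at most 1.72%, and the copies of Eno1 held 7.92% to 9.98%, mostly in Eno1b. For Ldhb the copy Gm5514 reached 100% of the joint counts, in a library with 0 counts of Ldhb itself, so the low Ldhb values are uncertain. Exons of 12 members overlapped a gene on the opposite strand, whose counts reached 50.7% of the member's for Pfkp (Pitrm1), 19.4% for Gapdh (Iffo1) and 619% for Ankrd37 (Ufsp2 and Lrp2bp), so these levels are uncertain to that extent. Pfkm overlapped Senp1, which had more counts than Pfkm in at least 1 library.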

How the data were processed

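RNA was sequenced from 15 libraries of mouse B cells in 5 groups of 3. The authors deposited whole-number counts per gene, with 54809 of 54838 genes named. The submitters' processing notes name STAR 2.7.10a (an aligner), featureCounts 2.0.6 (a read counter), DESeq2 and the builds mm10 and GRCm38, without saying how each was used. Library totals were 25397624 to 36272197 counts. Among counts of 2 to 20, 79.4% to 92.8% were even, and the unit behind a count is not given in the sources used here. Strand, handling of reads with several matches and annotation release are likewise not given.

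Genes were filtered with filterByExpr, scaled by TMM and tested with edgeR 4.0.16 in R 4.3.3 (glmQLFit with robust estimation, glmQLFTest, two-sided, Benjamini-Hochberg adjustment, threshold 0.05). The 10 comparisons between groups were fitted over all 15 libraries, 17144 genes, and the 3 between letters over the 9 activated libraries with stimulus as a term, 15727 genes. The tests were checked on simulated counts with 200 changed genes. Alternatives were DESeq2 1.42.0, RLE size factors, no filter, other sets of libraries, the letter as a block, leaving out each library, and halved counts. Shares within a family use CPM per kilobase of the union of a gene's GENCODE M21 exons, which is not the length of a transcript. Near copies were found with blastn 2.17.0. A fold over 0 counts is given as a lower bound at 3 counts over the group, and a ratio over 1 to 3 counts with a 95% exact Poisson interval, both covering counting error only. A second Aldoa entry, with at most 38 counts, was left out.

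Members and lists were chosen with earlier results of these data known. Every member is accounted for. Values per library are given for the 5 called members of largest change in each direction in GC and in CD40 against naive, the 3 of largest change in each comparison of letters, and Slc2a1, Hk2, Pfkp, Pkm, Ldha, Pdk1, Hif1a and Bnip3l. Of the other pathway genes, the called gene of largest change is named for each list and comparison with naive, GC or another letter, apart from 1 gene that is not reported here. Whether letters pair libraries was checked by correlating deviations from the group means. Same-lettered activated libraries of different stimuli correlated at 0.362 to 0.495 and were taken as paired, while letters of naive or GC libraries correlated at -0.0696 to 0.0752 and were not.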

Additional observations from a re-analysis of the deposited data

Results flagged for a closer look

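Members called in opposite directions against naive cells in GC cells and in activated cells were Hk1, Pdk1 and Egln1. The naive libraries are shared, so each difference below equals the stimulus minus GC, tested by edgeR with Benjamini-Hochberg adjustment. For Hk1 the change against naive cells exceeded that of GC cells by 1.75 ± 0.24 (SE) on the log2 scale with LPS, 1.90 ± 0.24 with CpG and 1.75 ± 0.24 with CD40 (adjusted p = 7.83e-05, 3.81e-05 and 7.79e-05). For Pdk1 the same difference was 2.88 ± 0.30 with CpG (adjusted p = 5.8e-06). For Egln1 it was 2.58 ± 0.44 with LPS, 2.71 ± 0.44 with CpG and 2.57 ± 0.44 with CD40 (adjusted p = 0.000652, 0.00046 and 0.000668). The opposite directions rest on narrow calls against naive cells. The GC against naive call of Hk1 was lost without any one GC library or naive replicate C (adjusted p = 0.0596 to 0.174). The CpG against naive call of Pdk1 was lost without CpG replicate B, naive replicate A or naive replicate B and with only the 6 libraries compared (adjusted p = 0.0702 to 0.125). The GC against naive call of Egln1 was lost in 8 alternatives, among them any one GC library or naive replicate B left out (adjusted p = 0.052 to 0.231).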

How the results depend on the processing

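Of 272 calls of members, 203 kept direction and threshold under every alternative run, and none reversed. By alternative, DESeq2 ended 2, RLE size factors 2, no stimulus term 2, no filter 11, the 6 compared libraries alone 14 and leaving out 1 library 118 over all such fits, while halved counts ended 0. Halving, and the letter block within activated libraries, were chosen after seeing the data. With letters as groups in all 15 libraries, which ended 41 calls, A against B had 1 member higher and 18 lower, A against C had 1 higher and 0 lower, and B against C had 0 lower. The shares of all genes in that fit are not given here, and the cause of the lost calls was not tested. With only the 6 libraries compared, 1 member was lower in CD40 than GC and 1 in LPS than GC. DESeq2 called 1 gene in each comparison of stimuli.

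With the replicate letter as a block over 15 libraries, 0 calls were lost, and members lower than GC numbered 2 with LPS, 1 with CpG and 1 with CD40: Hif1a (-0.75, -0.63 and -0.69) and, with LPS, Pdk3 (-0.48). The letters do not pair GC or naive libraries, so these are values of the fit and not a paired result.

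Leaving out each library in turn gave 1 to 2 members higher in A than B, 6 to 12 higher and 5 to 8 lower in A than C, 5 to 7 lower in GC than naive and 1 to 3 lower in LPS than naive. Lower than GC were 0 to 1 with CD40, 1 being reached without CD40 replicate A or GC replicate C, and 0 to 1 with LPS, 1 without LPS replicate C or GC replicate C. Depth limits Ldhb, P4ha2 and Egln3, which rest on 0 to 2 counts in naive cells, and 3 libraries a group limit every error.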
